A study of Mus musculus with 12 samples.

Results

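Immediate early genes are switched on within minutes of a stimulus, from promoters that need no new protein synthesis, and 10 of them were followed here in the mouse lens: the AP-1 genes *Fos*, *Fosb*, *Jun*, *Junb* and the partner gene *Atf3*, the zinc-finger gene *Egr1*, the orphan nuclear receptor gene *Nr4a1*, and *Ier3*, *Myc* and *Dusp1*. They were taken by gene symbol from a table of 55487 gene identifiers, all 10 were present, and each was read in all 12 lens libraries. The libraries came from 4 *Trpm3* genotypes with 3 libraries each, and *Trpm3* encodes a calcium-permeable cation channel. Beside wild-type lenses these were a knockout, Trpm3-KO, and a knock-in studied as Trpm3-I/M or Trpm3-M/M. Trpm3-I/M lenses were heterozygous and Trpm3-M/M lenses homozygous for a CRISPR/Cas9 knock-in that replaces an isoleucine of the channel with methionine, and Trpm3-KO mice carried a gene-targeted null allele whose cassette leaves a fusion transcript. All mice were on a B6J background without further treatment, lenses were taken at postnatal day 7, and each library pooled RNA from 4 male and 4 female lenses. The comparison asks how the knock-in, for which the study proposes a gain of channel function, and the loss of the channel bear on the lens. Because the libraries are bulk pools, more cells of a type and more RNA per cell cannot be told apart.

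Calcium entry and ERK signaling both reach these promoters. Phosphorylated ternary complex factors act with serum response factor at serum response elements, and phosphorylated CREB acts at cyclic AMP response elements (CREs). The FOS and JUN proteins then pair into AP-1 dimers, EGR1 binds GC-rich sites and is held in check by the NAB corepressors, and dual-specificity phosphatases such as DUSP1 switch MAP kinases off again.

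Upstream sequence was available from RefSeq (GRCm38.p6) for 8 of the 10 genes, and none is printed for *Egr1* and *Myc*. Stretches just before the transcription start are shown for 5 genes called higher in Trpm3-M/M lenses and for *Dusp1*, which was not called, so that their promoters can be compared. Each reads 5′ to 3′ on the gene's own strand, is cut short where an annotated exon begins, and has in capitals every match on either strand to TGACG (the CRE core), to GCGNGGGCG (an EGR site) or to TATAAA (the box where TBP binds).
Fos, chr12:85473730-85473889, plus strand: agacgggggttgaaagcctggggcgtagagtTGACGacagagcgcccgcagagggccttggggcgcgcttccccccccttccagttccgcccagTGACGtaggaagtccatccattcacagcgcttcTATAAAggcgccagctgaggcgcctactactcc
Fosb, chr7:19310052-19310205, minus strand: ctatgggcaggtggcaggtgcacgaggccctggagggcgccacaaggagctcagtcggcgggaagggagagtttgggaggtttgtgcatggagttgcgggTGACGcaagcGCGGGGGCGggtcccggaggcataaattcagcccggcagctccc
Junb, chr8:84978749-84978908, minus strand: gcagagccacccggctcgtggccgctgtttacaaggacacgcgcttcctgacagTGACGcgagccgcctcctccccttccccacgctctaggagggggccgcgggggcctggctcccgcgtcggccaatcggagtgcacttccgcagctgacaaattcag
Nr4a1, chr15:101266686-101266845, plus strand: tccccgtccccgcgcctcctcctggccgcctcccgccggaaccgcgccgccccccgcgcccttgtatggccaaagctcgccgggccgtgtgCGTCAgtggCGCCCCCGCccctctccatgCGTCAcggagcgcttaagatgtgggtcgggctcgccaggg
Ier3, chr17:35821553-35821683, plus strand: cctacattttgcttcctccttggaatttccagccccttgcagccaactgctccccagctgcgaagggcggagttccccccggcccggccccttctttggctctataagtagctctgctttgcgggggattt
Dusp1, chr17:26508520-26508632, minus strand: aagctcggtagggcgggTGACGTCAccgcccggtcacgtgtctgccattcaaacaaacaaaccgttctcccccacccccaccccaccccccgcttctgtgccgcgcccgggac

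Over the 250 bases before the start, the CRE core occurred in 6 of the 8 genes (*Fos*, *Fosb*, *Junb*, *Atf3*, *Nr4a1* and *Dusp1*) and in 17.8% of 32851 RefSeq promoters of the same length. The 8-base CRE TGACGTCA, which contains the core, was found in *Dusp1* at 143 bases before the start and in 1.55% of all promoters. *Fos* carried CRE cores at 129 and 66 bases before the start and TATAAA at 33, a motif present in 12.4% of promoters. EGR sites were found in *Fosb* at 50 and in *Nr4a1* at 60 bases before the start, against 4.7% of promoters. None of the 8 windows held the AP-1 site TGANTCA, found in 6.75% of promoters. None held an exact match to the CArG box CCWWWWWWGG (W is A or T), the core of the serum response element, found in 1.47%. Looser matches and bases further upstream were not searched. The sites given are matches of letters in a short window, not measured binding.

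Library totals ran from 56162169 to 82090198 estimated counts, and levels are given as counts-per-million (CPM) after scaling by trimmed mean of M-values (TMM). The TMM factors were highest in Trpm3-M/M libraries, at 1.22 to 1.27, and were 1.00 to 1.01 for Trpm3-I/M and 0.828 to 0.935 for the other libraries. *Trpm3* RNA itself stood at 89.9 to 99.7 CPM in Trpm3-KO against 251 to 285 in wild-type libraries, and at 469 to 484 and 370 to 413 in the homozygous and heterozygous knock-in. Lens fiber markers were abundant in every library, *Cryaa* alone averaging at least 119254 CPM in each genotype. One library stood apart: Trpm3-I/M replicate 3 had 0.0721 CPM of *Xist*, against 45.8 to 305 in the other 11, and its 4 Y-linked genes summed to 69.1 CPM against 21.6 to 50.6, although every library is labelled as a pool of both sexes. Calls of the 10 genes that involve Trpm3-I/M are therefore also given without it, and the 15 other listed genes and markers called in Trpm3-I/M against wild-type were all called without it too (edgeR, highest FDR 0.00165). Nothing in the labels says whether libraries of a genotype came from separate litters, so p-values measure the spread between these libraries.

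The 10 genes differed most in Trpm3-M/M lenses, where 8 were called higher than in wild-type, by 3.56-fold for *Myc*, 4.57-fold for *Egr1*, 14.8-fold for *Fos* and 37.6-fold for *Ier3*. Under the looser of the 2 filters described below, which tested all 10, 11.8% of all genes were called higher. For 9 of the 10 genes all 3 Trpm3-M/M libraries exceeded the 9 others, and *Dusp1* was the exception. Over all 32253 genes with at least 1 count, 13.5% showed that separation. Among the remaining genotypes the ranges overlapped for most of the 10 genes. The per-library plot shows both features.

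**Figure D1:**
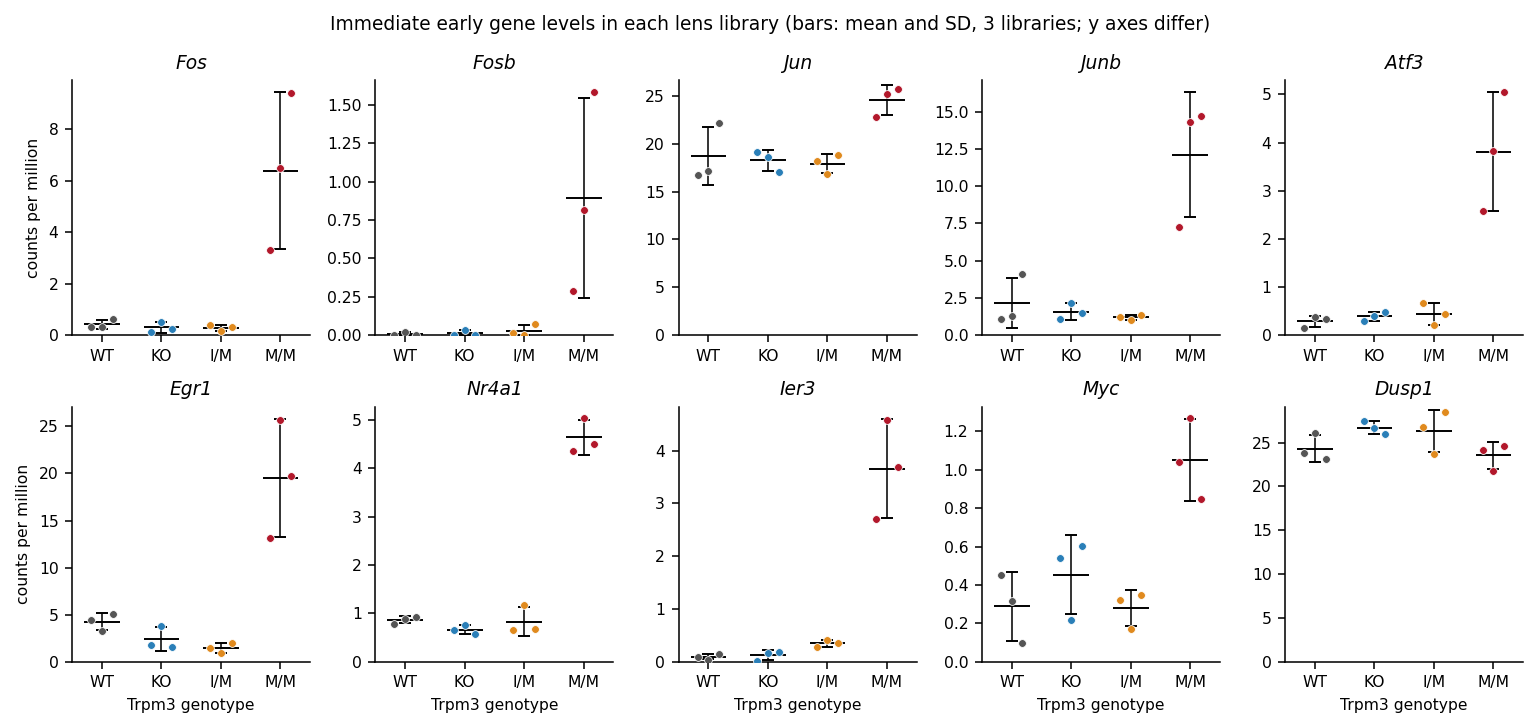
Level of each of the 10 immediate early genes in counts-per-million (y axes start at 0 and differ between panels) in the lens libraries of each genotype (WT is wild-type). Points are libraries in replicate order, bars the mean and SD of 3. The Trpm3-M/M points lie above all others for every gene except Dusp1, by the smallest margin for Jun (22.8 against 22.1).

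A pair of filters was needed to test the group, because several members are hardly expressed in the wild-type lens. Genes with at least 5 CPM in at least 3 libraries (8984 genes, here the CPM filter) included *Jun*, *Junb*, *Egr1*, *Nr4a1* and *Dusp1*. The filters used CPM by library size alone, and on that scale *Junb*, *Egr1* and *Nr4a1* reached 5 CPM in Trpm3-M/M libraries only, so they passed through the group in which they were high. The other 5 genes were tested with at least 0.25 CPM in at least 3 libraries (15447 genes, the relaxed filter), which *Fosb* met in Trpm3-M/M libraries alone. A gene was called when edgeR's quasi-likelihood test gave a fold change of at least 2 and a Benjamini-Hochberg adjusted p (FDR) of at most 0.05.

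In Trpm3-M/M against wild-type, 3 of the 5 members tested under the CPM filter were called higher and none lower, while 6.42% of all genes tested were called higher. Under the relaxed filter 8 of 10 were called higher, against 11.8% of all genes. With no fold change threshold *Jun* joined those higher under the CPM filter, and 31.4% of all genes were then higher. Since passing the filters depended on Trpm3-M/M levels for several members, these counts describe the list and are not a test of it.

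*Fos* (chr12:85473890-85477273, GRCm38, plus strand), the founding FOS family gene, was low outside Trpm3-M/M lenses, with 7 to 31 counts a library. Wild-type libraries 1, 2 and 3 had 0.334, 0.315 and 0.615 CPM, Trpm3-KO 0.131, 0.525 and 0.263, Trpm3-I/M 0.404, 0.170 and 0.303, and Trpm3-M/M 3.30, 6.47 and 9.38. The lowest Trpm3-M/M library was thus 5.37 times the highest of the others, and the remaining genotypes overlapped. *Fos* was higher in Trpm3-M/M than in wild-type by 3.89 ± 0.43 on the log2 scale (SE, FDR 2.80e-06 by edgeR under the relaxed filter).

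*Fosb* (chr7:19302696-19310051, minus strand), a second FOS family gene, was all but absent in 3 genotypes. Its counts were 0, 1 and 0 in wild-type, 0, 2 and 0 in Trpm3-KO, 1, 0 and 5 in Trpm3-I/M, and 23, 75 and 140 in Trpm3-M/M libraries. A count of 0 allows up to 3 counts, or 0.0590 CPM in wild-type library 1. Pooled over libraries, the ratio of Trpm3-M/M to wild-type was 136 with a 95% counting interval from 24.2 to 5389, and edgeR called the gene higher (FDR 1.19e-04). Intervals from counts cover counting error only, and the ratio rests on a single wild-type count: without wild-type replicate 2 the fitted log2 difference went from 6.68 to 8.92.

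*Jun* (chr4:95049034-95052222, minus strand), the JUN family member with the highest CPM in the list, was expressed in every lens. Wild-type libraries had 16.7, 17.2 and 22.1 CPM, Trpm3-KO 19.1, 18.6 and 17.0, Trpm3-I/M 18.2, 16.8 and 18.8, and Trpm3-M/M 22.8, 25.1 and 25.7. Trpm3-M/M libraries were the highest, but only just above wild-type replicate 3. The difference of 0.39 ± 0.09 (log2, SE) passed the FDR (0.00222, edgeR) and stayed under 2-fold, so *Jun* was not called.

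*Junb* (chr8:84974484-84978718, minus strand), which encodes a partner of FOS proteins, was higher in Trpm3-M/M libraries at 7.26, 14.3 and 14.7 CPM. Wild-type had 1.08, 1.30 and 4.10 CPM, Trpm3-KO 1.10, 2.19 and 1.47, and Trpm3-I/M 1.20, 1.06 and 1.38. The Trpm3-M/M difference from wild-type was 2.48 ± 0.40 (log2, SE; FDR 1.11e-04 by edgeR). Wild-type replicate 3 stood above the other 8 libraries outside Trpm3-M/M, and without it the difference was 3.35 (FDR 5.13e-06).

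*Atf3* (chr1:191170296-191218039, minus strand) encodes a stress-responsive transcription factor that dimerizes with JUN proteins. Its levels were 0.157, 0.378 and 0.337 CPM in wild-type, 0.299, 0.398 and 0.488 in Trpm3-KO, 0.674, 0.219 and 0.432 in Trpm3-I/M and 2.58, 3.83 and 5.04 in Trpm3-M/M. The last group lay clear of the others. *Atf3* was higher than in wild-type by 3.69 ± 0.37 (log2, SE; FDR 1.21e-06, edgeR with the relaxed filter).

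Levels can be compared between AP-1 genes only per length, as CPM per kilobase of annotated exon. On that scale *Jund*, the constitutive JUN gene and not one of the 10, dominated in wild-type lenses at 23.7 ± 2.35, followed by *Jun* at 5.86 ± 0.943 and *Junb* at 0.940 ± 0.732, with *Fos* at 0.179 ± 0.0713 (SD, n = 3). In Trpm3-M/M lenses *Jund* was at 34.4 ± 2.18, *Jun* at 7.70 ± 0.480, *Junb* at 5.26 ± 1.82 and *Fos* at 2.71 ± 1.29. The 4 FOS family genes together made up 5.16% to 9.56% of the summed RNA of 7 AP-1 genes in Trpm3-M/M libraries, against 0.707% to 0.961% in wild-type lenses, 0.491% to 1.16% in Trpm3-KO and 1.08% to 1.31% in Trpm3-I/M. *Junb* made up 1.60% to 5.05% in wild-type and 7.03% to 11.8% in Trpm3-M/M libraries. The share of *Jund* ran from 74.3% to 79.8% in wild-type and from 63.7% to 71.9% in Trpm3-M/M. Of the FOS genes outside the list, *Fosl2* was higher in Trpm3-M/M by 3.79 ± 0.17 (log2, SE; FDR 6.00e-10, edgeR), and *Fosl1* was at 0 in all 9 libraries of the other genotypes and between 0.0375 and 0.124 CPM in Trpm3-M/M. *Jund* differed from wild-type by 0.51 ± 0.07 (log2; FDR 3.84e-05, edgeR with the relaxed filter) and was not called.

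*Egr1* (chr18:34859823-34864984, plus strand), which codes for a zinc-finger factor induced through ERK, changed in both knock-in genotypes and in opposite directions. Its levels were 4.42, 3.32 and 5.09 CPM in wild-type, 1.83, 3.85 and 1.54 in Trpm3-KO, 1.48, 0.911 and 1.95 in Trpm3-I/M and 13.2, 25.7 and 19.8 in Trpm3-M/M. All Trpm3-I/M libraries lay below all wild-type libraries and all Trpm3-M/M libraries above them. *Egr1* was higher in Trpm3-M/M lenses by 2.19 ± 0.30 (log2, SE; FDR 2.98e-05) and lower in Trpm3-I/M lenses by 3.00-fold, a log2 difference of -1.59 ± 0.37 (FDR 0.00549, both edgeR). Without Trpm3-I/M replicate 3 the latter was -1.85 (FDR 0.00649).

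The relatives of *Egr1* were scarcer. *Egr2* had at most 1 count in any library outside Trpm3-M/M, where it stood at 0.388, 0.640 and 0.576 CPM. *Egr3* ran from 0 to 0.0396 CPM outside and stood at 0.363, 0.878 and 0.914 in Trpm3-M/M libraries. *Egr4* was at 0 in every library but Trpm3-M/M replicates 1 and 2. The EGR corepressor genes were called as well: *Nab2* was higher in Trpm3-M/M by 1.49 ± 0.14 and *Nab1* by 1.01 ± 0.09 (log2, SE; FDR 5.80e-07 and 4.97e-07 by edgeR under the CPM filter). *Nab1*, just past 2-fold, was not called under the relaxed filter.

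*Nr4a1* (chr15:101254269-101274795, plus strand) encodes a nuclear receptor that acts without a known ligand, and it had the tightest Trpm3-M/M replicates of the genes called. It stood at 0.786, 0.882 and 0.932 CPM in wild-type, 0.654, 0.760 and 0.582 in Trpm3-KO, 0.647, 1.17 and 0.678 in Trpm3-I/M and 4.36, 5.04 and 4.50 in Trpm3-M/M. Trpm3-M/M lay clear of all others, and the Trpm3-KO libraries lay just below the wild-type ones. The Trpm3-M/M difference from wild-type was 2.42 ± 0.19 (log2, SE; FDR 1.09e-07, edgeR). The sister genes were measured at lower levels. *Nr4a3* had 0.700, 0.618 and 0.474 CPM in Trpm3-M/M against 0.0420 to 0.112 elsewhere, while *Nr4a2* had 0.575, 0.455 and 0.451 CPM against 0.0198 to 0.378.

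*Ier3* (chr17:35821684-35822923, plus strand), whose product modulates ERK signaling and cell survival, was the one member higher in both knock-in genotypes. Its levels were 0.0983, 0.0420 and 0.139 CPM in wild-type, 0.0187, 0.163 and 0.188 in Trpm3-KO, 0.283, 0.413 and 0.360 in Trpm3-I/M and 2.70, 4.59 and 3.69 in Trpm3-M/M. The order Trpm3-M/M above Trpm3-I/M above the other genotypes held without overlap. *Ier3* was higher than in wild-type by 5.23 ± 0.39 in Trpm3-M/M lenses (log2, SE; FDR 4.99e-08) and by 1.89 ± 0.52 in Trpm3-I/M lenses (FDR 0.0145), both by edgeR with the relaxed filter. The Trpm3-I/M call rested on 14 wild-type counts in all and was lost without wild-type replicate 2, at 1.56 (FDR 0.0634); without Trpm3-I/M replicate 3 it was 1.88 (FDR 0.0326).

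*Myc* (chr15:61985391-61990374, plus strand), a growth regulator, had 0.452, 0.315 and 0.0991 CPM in wild-type, 0.542, 0.217 and 0.601 in Trpm3-KO, 0.324, 0.170 and 0.346 in Trpm3-I/M and 1.04, 1.27 and 0.846 in Trpm3-M/M. Trpm3-M/M libraries were the highest, and the other genotypes overlapped. It was higher in Trpm3-M/M by 1.83 ± 0.42 (log2, SE; FDR 0.00189, edgeR with the relaxed filter), the smallest difference among the 8 members called.

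*Dusp1* (chr17:26505590-26562128, minus strand), which codes for a phosphatase of MAP kinases, was abundant in every lens. It had 23.8, 26.1 and 23.1 CPM in wild-type, 27.5, 26.6 and 26.0 in Trpm3-KO, 26.8, 23.7 and 28.5 in Trpm3-I/M and 24.2, 21.8 and 24.6 in Trpm3-M/M. These ranges overlapped except those of Trpm3-M/M and Trpm3-KO, whose nearest libraries had 24.6 and 26.0 CPM. The Trpm3-M/M difference from wild-type was -0.05 ± 0.07 (log2, SE; FDR 0.577, edgeR), or 0.46 with library size alone, where the median of all genes moved by 0.50. The pooled counts gave a ratio of 0.967 with a 95% counting interval from 0.928 to 1.01. Other phosphatase genes of the family were called higher: *Dusp6* stood at 3.56 ± 0.781 CPM in wild-type and 14.1 ± 2.08 in Trpm3-M/M, and *Dusp4* at 6.998 ± 0.628 and 22.9 ± 1.39 (SD, n = 3).

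**Figure D2:**
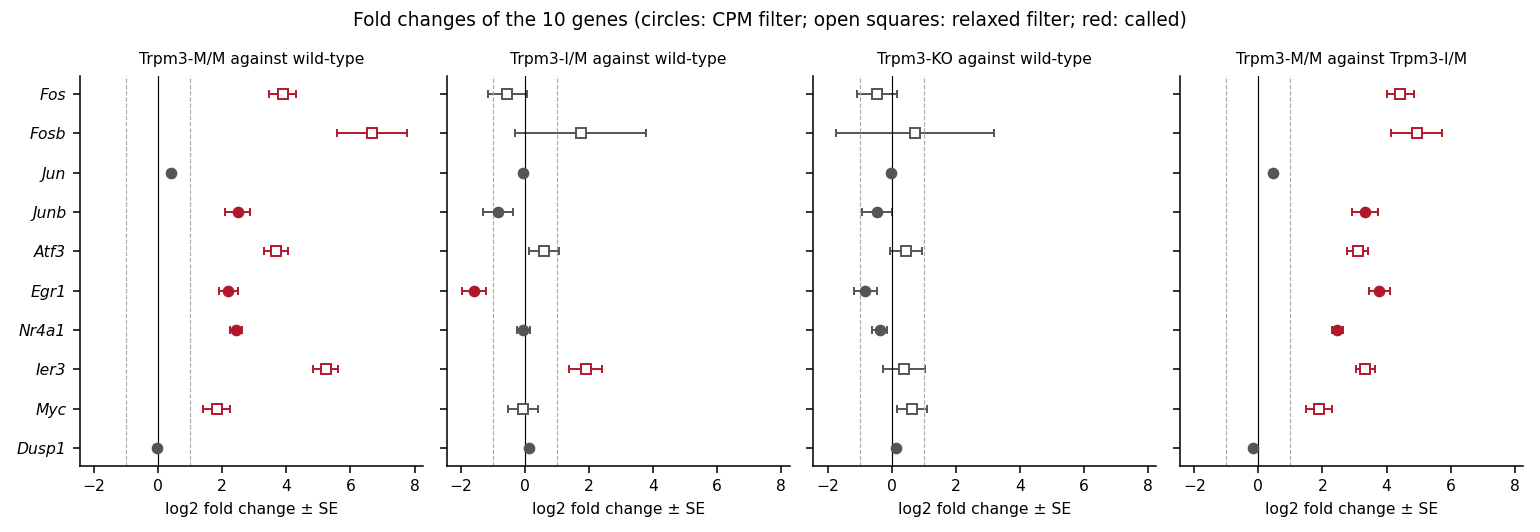
Log2 fold change with SE of the 10 genes in 4 comparisons, from edgeR with the CPM filter (circles) or the relaxed filter (open squares), with calls in red and dashed lines at 2-fold. In both comparisons of Trpm3-M/M 8 genes are called higher, where 11.8% (against wild-type) and 8.43% (against Trpm3-I/M) of all genes are under the relaxed filter. In Trpm3-I/M against wild-type Egr1 is lower (-1.59) and Ier3 higher (1.89), and in Trpm3-KO none is called.

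In Trpm3-I/M lenses, which carry 1 mutant allele, fewer members were called. Under the CPM filter *Egr1* was the 1 member called lower and none was called higher, where 0.746% of all genes were lower and 2.58% higher. Under the relaxed filter *Egr1* was lower and *Ier3* higher, where 1.88% of all genes were lower and 4.45% higher. *Fos* differed from wild-type by -0.55 ± 0.60, *Junb* by -0.84 ± 0.47, *Atf3* by 0.59 ± 0.47 and *Nr4a1* by -0.05 ± 0.22 (log2, SE), and none of these 4 passed the FDR. The error was widest for *Fosb*, at 1.74 ± 2.04, and narrowest for *Jun* and *Dusp1*, at -0.06 ± 0.09 and 0.11 ± 0.07.

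The knock-in genotypes were also compared directly, with the Trpm3-I/M libraries as a second reference. Trpm3-M/M exceeded Trpm3-I/M for 3 of 5 members under the CPM filter (3.67% of all genes) and for 8 of 10 under the relaxed filter (8.43%). *Egr1* differed by 3.78 ± 0.33, *Junb* by 3.32 ± 0.41, *Nr4a1* by 2.46 ± 0.17 and *Fos* by 4.43 ± 0.42 (log2, SE; FDR 1.10e-06, 2.12e-05, 1.46e-07 and 1.57e-06 by edgeR). *Jun* was at 0.46 ± 0.09, under 2-fold, and *Dusp1* at -0.16 ± 0.07 (FDR 0.0683). Without Trpm3-I/M replicate 3 the same counts of 3 and 8 members were called.

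Loss of the channel gave no call. In Trpm3-KO against wild-type 0 of the 10 members were called by edgeR under either filter or by DESeq2, whereas 0.568% of all genes under the CPM filter and 0.99% under the relaxed filter were called in either direction. At an unadjusted p under 0.05, reached by 18.1% of all genes under the CPM filter and 16.1% under the relaxed filter, there was 1 member, *Egr1*, at -0.83 ± 0.36 (log2, SE; edgeR FDR 0.246). Trpm3-KO replicate 2 had 3.85 CPM of *Egr1*, within the wild-type range, and replicates 1 and 3 lay below it.

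In some genotypes 1 library was the lowest or highest for most members. Trpm3-M/M replicate 1 was the lowest Trpm3-M/M library for 8 of the 10 genes, all but *Myc* and *Dusp1*, while it was the lowest for 37.4% of all tested genes. Wild-type replicate 3 was the highest wild-type library for 6 genes, against 35.9% of all tested genes, and Trpm3-I/M replicate 2 the lowest for 8, against 29.6%. Trpm3-I/M replicate 3 and Trpm3-M/M replicate 3 were each the highest of their genotype for 6 genes, against 33.3% and 32.9%. In Trpm3-KO replicates 1 and 3 were each the lowest for 4 genes, against 34.0% and 31.9% of all tested genes. Trpm3-KO replicate 2 was the highest for 5, against 35.5%. The spread among Trpm3-M/M libraries was widest for the FOS genes, with a coefficient of variation of 47.6% for *Fos* and 72.7% for *Fosb*, and narrowest for *Jun* (6.23%) and *Dusp1* (6.42%).

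**Figure D3:**
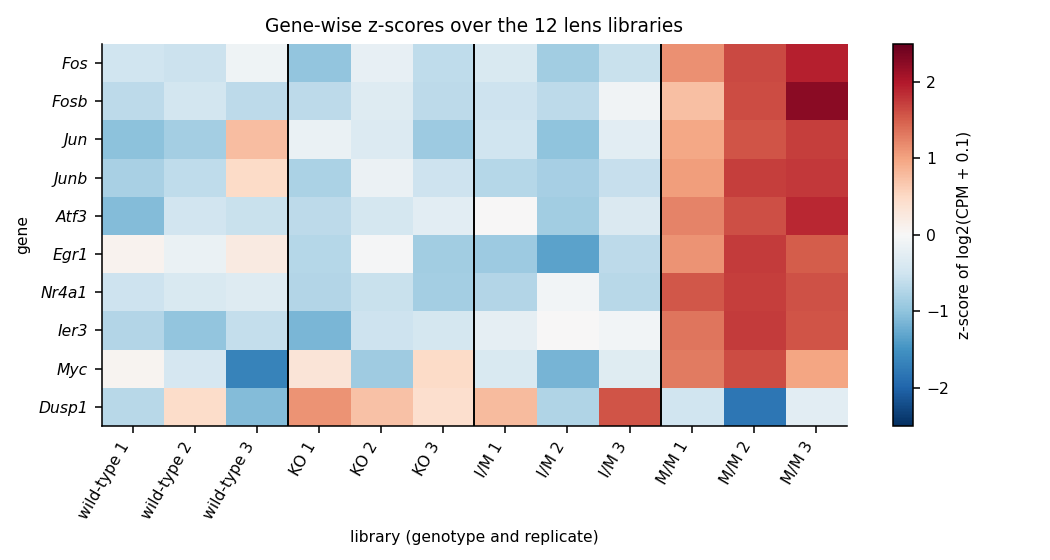
Z-scores of log2(CPM + 0.1) for each of the 10 genes over the 12 libraries, red above and blue below the gene's mean, with black lines between genotypes. All genes but Dusp1 are red in the 3 Trpm3-M/M columns, palest in replicate 1 for 8 of them, and Junb and Jun are also pale red in wild-type replicate 3.

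The wider immediate early program was read from a list of 62 other genes, of which 41 passed the CPM filter. In Trpm3-M/M 16 were higher and 2 lower than in wild-type, where 6.42% of all genes were higher and 2.53% lower, and the median log2 difference of the 41 was 0.54 against -0.00 for all genes tested. As with the members, some passed the filter only through Trpm3-M/M libraries. In Trpm3-I/M 6 were higher and 0 lower, where 2.58% of all genes were higher and 0.746% lower. In Trpm3-KO 0 were called by edgeR or DESeq2, where edgeR called 0.568% of all genes, and 9 of the 41 had an unadjusted p under 0.05, against 18.1% of all genes.

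By the size of the Trpm3-M/M difference the 41 genes under the CPM filter, which leave out the scarce *Egr2* and *Egr3*, were led by *Arc*, a synaptic activity gene, at 10.8 ± 1.49 CPM in Trpm3-M/M lenses, 3.75 ± 0.634 in Trpm3-I/M lenses and 0.0333 ± 0.0107 in wild-type (SD, n = 3). *Zfp36l1*, an RNA decay factor, followed at 43.9 ± 2.77, 2.55 ± 0.274 and 0.876 ± 0.367 CPM in that order of genotypes. The kinase gene *Plk2* had 6.26 ± 0.867, 1.13 ± 0.226 and 0.390 ± 0.0336 CPM, and *Fosl2* 9.20 ± 1.57, 2.61 ± 0.242 and 0.663 ± 0.0931. All 4 were called higher in both knock-in genotypes. *Arc* had at most 2 counts in any wild-type library, so the size of its differences rests on few counts there.

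The matricellular gene *Ccn1* was at 8.19 ± 1.75 CPM in Trpm3-M/M lenses, 0.823 ± 0.229 in Trpm3-I/M lenses and 0.715 ± 0.184 in wild-type. The Krüppel-like factor gene *Klf2*, at 5.62 ± 0.971, 2.77 ± 0.132 and 0.920 ± 0.136 CPM, was called in both knock-in genotypes. *Klf4* stood at 7.62 ± 1.90, 1.75 ± 0.139 and 1.08 ± 0.295 CPM and *Dusp6* at 14.1 ± 2.08, 3.56 ± 0.690 and 3.56 ± 0.781, both called in Trpm3-M/M and not in Trpm3-I/M. Lower in Trpm3-M/M were the growth-arrest genes *Btg1*, by 1.08 ± 0.06, and *Gadd45g*, by 1.18 ± 0.11 (fall on the log2 scale, SE).

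**Figure D4:**
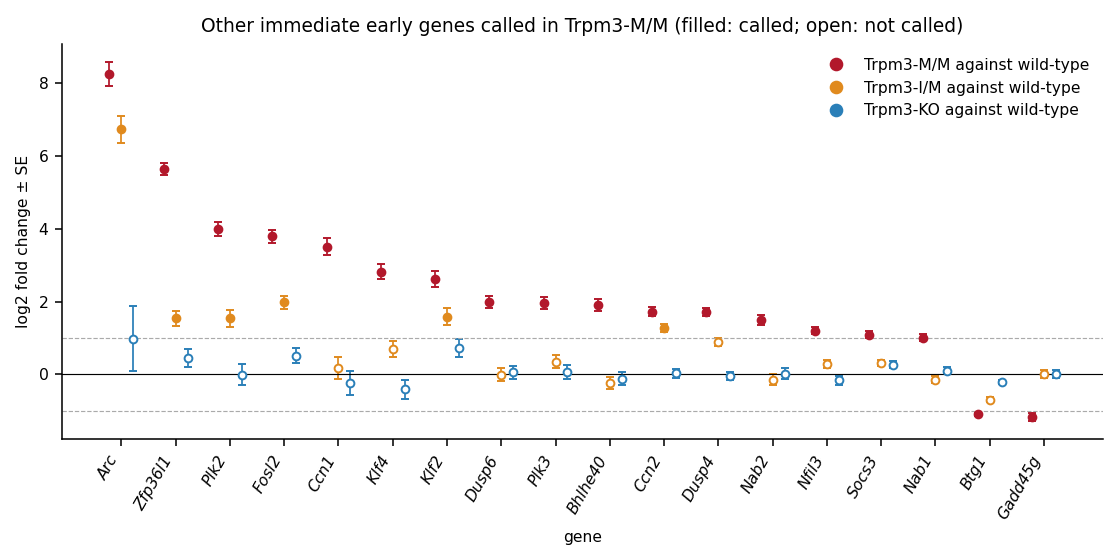
Log2 fold change against wild-type with SE for the 18 other immediate early genes called in Trpm3-M/M, ordered by size, in Trpm3-M/M (red), Trpm3-I/M (orange) and Trpm3-KO (blue), which share the same wild-type libraries. Filled points were called. Arc leads in both knock-in genotypes (8.25 and 6.73), Btg1 and Gadd45g are the 2 lower genes, and no Trpm3-KO point is filled. Arc had at most 2 counts in any wild-type library.

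Of 32 genes for upstream regulators (serum response factor and its partners, CREB and MEF2 factors, and MAP kinases), 27 passed the CPM filter and 2 were called in Trpm3-M/M, both higher, a share near the 6.42% of all genes called higher. *Elk3*, a ternary complex factor, was at 22.9 ± 1.47 CPM in Trpm3-M/M lenses and 8.37 ± 0.427 in Trpm3-I/M lenses against 2.34 ± 0.160 in wild-type, and was called in both. *Mef2d* was at 27.5 ± 0.316, 16.8 ± 1.52 and 12.9 ± 0.383 CPM and was called in Trpm3-M/M. The median log2 difference of the 27 was 0.18. *Srf* itself differed from wild-type by 0.15 ± 0.09, *Creb1* by -0.18 ± 0.06 and *Mapk3* by 0.21 ± 0.05 in Trpm3-M/M (log2, SE), all under 2-fold. None of the 27 was called in Trpm3-KO by edgeR or DESeq2, where 0.568% of all genes were called by edgeR. At an unadjusted p under 0.05 there were 4 of the 27, against 18.1% of all genes.

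Markers of several other cell types were also higher in Trpm3-M/M than in wild-type lenses. The 8 macrophage and microglia markers summed to 8.54 to 15.7 CPM in Trpm3-M/M libraries, against 0.851 to 1.06 in Trpm3-I/M, 0.278 to 0.462 in wild-type libraries and 0.217 to 0.299 in Trpm3-KO, and 8 of 8 were above every wild-type library in Trpm3-M/M, as were 20.5% of all genes with at least 1 count. *Csf1r*, the most abundant, stood at 0.189 ± 0.0277 CPM in wild-type and 3.38 ± 1.28 in Trpm3-M/M, and the pan-leukocyte gene *Ptprc* was at 0 in all wild-type libraries. The 6 vascular endothelial markers summed to 49.2 to 57.5, 23.7 to 28.8, 13.8 to 16.2 and 13.6 to 14.8 CPM in the same order. *Cdh5*, which codes for endothelial cadherin, was at 9.90 ± 1.92 CPM in Trpm3-M/M lenses, 2.88 ± 1.05 in Trpm3-I/M lenses and 0.245 ± 0.156 in wild-type, and *Pecam1*, *Tek* and *Cldn5* were called higher in both knock-in genotypes as well. The fifth endothelial marker tested, *Egfl7*, was not called, at 8.12 ± 0.855 CPM in Trpm3-M/M lenses, 6.32 ± 0.533 in Trpm3-I/M lenses and 7.78 ± 0.509 in wild-type. *Acta2* was the most abundant of the 8 pericyte and fibroblast markers. Their sums were 272 to 412, 100.6 to 127, 77.2 to 93.7 and 69.5 to 74.9 CPM in that order. *Rgs5* and *Cspg4* were called higher in both knock-in genotypes, and *Col1a1*, *Col1a2* and *Acta2* only in the homozygous one. For heterozygous lenses *Col1a2* averaged 3.26 CPM against 4.16 in wild-type, while *Col1a1* and *Acta2* averaged above wild-type. *Pdgfrb*, also tested, was not called in any genotype. It averaged 17.2 CPM for the homozygous knock-in and 17.9 for the knockout, against 12.1 in wild-type (log2 differences 0.50 and 0.56).

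The remaining lists were smaller or moved less. The 4 corneal markers summed to 0.236 to 0.436 CPM in wild-type and 3.66 to 6.72 in Trpm3-M/M. *Aldh3a1* led them, with means of 0.302 and 4.32 CPM. *Krt12* and *Krt14* were at 0 in all wild-type libraries and reached at most 0.0113 and 0.380 CPM in Trpm3-M/M. Photoreceptor markers, led by *Pde6b*, summed to 0.609 to 0.852 and 1.43 to 3.94 CPM and red cell markers, led by *Hba-a2*, to 1.22 to 11.9 and 12.4 to 15.0. Pigment cell markers, led by *Tyrp1*, overlapped between wild-type (3.09 to 3.63) and Trpm3-M/M (2.89 to 3.46), stood at 5.32 to 6.17 CPM in Trpm3-I/M, and had *Rpe65* at 0 in these genotypes. Heat shock genes overlapped too (1017 to 1673 and 1300 to 1394, mostly *Hspa8*), though *Hspa1b* was higher in both knock-in genotypes, by 3.72 and 2.33 on the log2 scale. Lens fiber markers, mostly *Cryaa*, summed to 255903 to 284113 CPM in wild-type and 170374 to 177553 in Trpm3-M/M, with *Bfsp1* called lower. Lens epithelial markers, led by *Pax6*, summed to 224 to 255 and 135 to 139.9 CPM, with *Foxe3* called lower and *Krt18* higher. The size of both falls depends on the scaling. The ratio of Trpm3-M/M to wild-type was 0.657 for fiber and 0.584 for epithelial markers with TMM, and 0.936 and 0.830 with library size alone. With 3 libraries against 3 the 2-sided exact permutation test cannot go below p = 0.1, which is its value for every list of Trpm3-M/M against wild-type but the pigment cell (0.5) and heat shock (0.9) lists. The part of these cell types in the differences of the 10 genes was not tested.

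**Figure D5:**
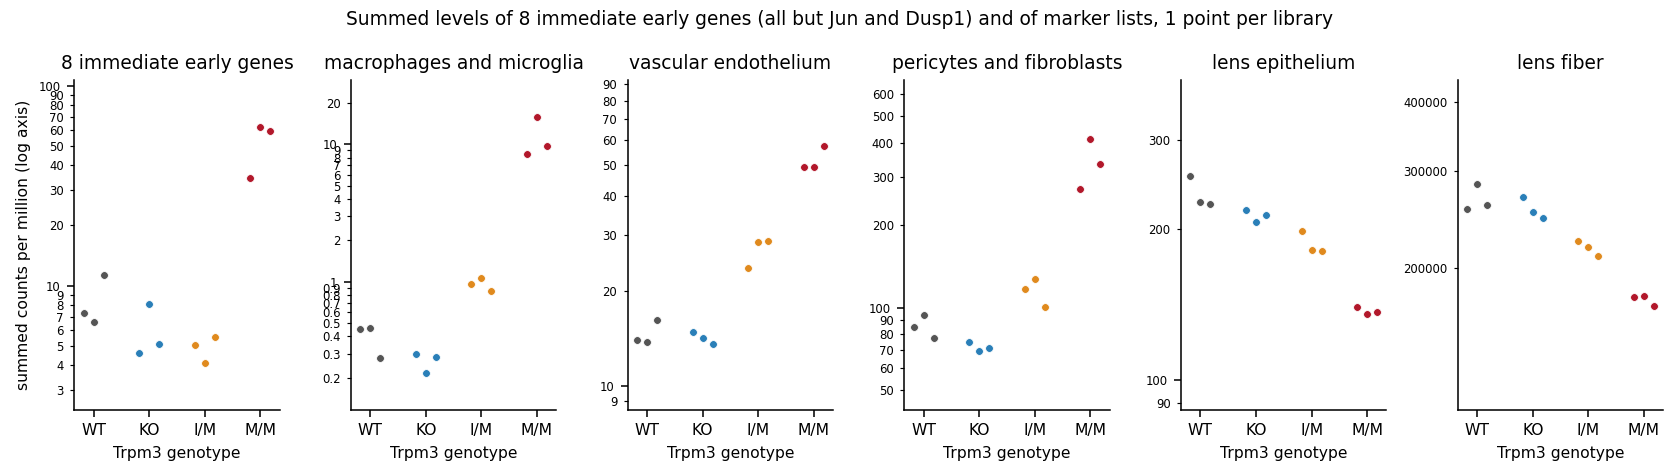
Summed counts-per-million on log axes in each library (points, in replicate order) for the 8 immediate early genes other than the abundant Jun and Dusp1 and for 5 marker lists. The 8 genes lie between 4.11 and 11.3 in wild-type, Trpm3-KO and Trpm3-I/M libraries and between 34.7 and 62.1 in Trpm3-M/M, where macrophage, endothelial and pericyte and fibroblast markers are also highest and lens markers lowest. In Trpm3-I/M the macrophage, endothelial and pericyte and fibroblast lists lie above wild-type, and the sum of the 8 genes lies below wild-type. Of these 8 genes only Egr1 is called lower (0.911 to 1.95 against 3.32 to 5.09 in wild-type) and only Ier3 higher.

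Among tested genes outside the list, those whose profile over the 12 libraries was most like the mean profile of the 5 members under the CPM filter were *Sel1l*, *Rcan2*, *Prss23*, *Sh3bgrl* and *Stk32a*. Their root mean square difference of z-scores was 0.377 to 0.388, against a median of 1.16 over all tested genes. *Rcan2*, which codes for a calcineurin regulator, had 71.4 CPM in wild-type and 127 in Trpm3-M/M, and *Prss23* 0.692 and 5.12. Likeness of profile was measured on libraries that share the genotype difference, so it is a description.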

How the data were processed

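Poly-A RNA from pooled mouse lenses was sequenced with a TruSeq library kit. The authors aligned and quantified the reads with DRAGEN against mm10 with an Ensembl annotation, and the deposited table holds estimated counts per gene, 88.4% of them whole. A second deposited table repeats these counts for 9500 rows with fold changes and p-values, which were not used. Lines that repeat a gene identifier were used once (55774 lines, 55487 identifiers).

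Estimated counts were rounded and tested with edgeR 4.0.16 (R 4.3.3), glmQLFit and glmQLFTest on genotype, all 12 libraries in 1 fit, TMM factors, and Benjamini-Hochberg adjustment over all genes tested. The CPM filter follows the study's methods. The relaxed filter was chosen after seeing the data, because with no filter the prior degrees of freedom of the fit became infinite and p-values lost the spread of single genes. The 10 genes, the gene lists and the marker lists were chosen with earlier results of these data known. Named from the lists were the genes called, at most 8 of each list by size in Trpm3-M/M, the most abundant gene of each marker list, and the 5 nearest profiles. *Mapk3*, *Srf*, *Creb1*, *Jund*, *Nab1*, *Nab2*, *Dusp4*, *Egfl7*, *Pdgfrb*, *Btg1*, *Gadd45g* and the *Egr1* and *Nr4a1* relatives were added after their values were seen.

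Replicate numbers did not pair the libraries: the deviations of same-numbered libraries correlated above 0.1 in 2 of 18 pairs (-0.264 to 0.149). No 2 libraries of a genotype agreed within counting noise. Coordinates and exons are from GENCODE vM21. The fit was tested on simulated counts with 200 changed genes. Other scalings, filters, DESeq2 1.42.0, fits on fewer libraries and a replicate block were tried. At 56162169 to 82090198 counts per library, the 3 counts that a count of 0 allows are worth 0.0325 to 0.0630 CPM.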

Additional observations from a re-analysis of the deposited data

Results flagged for a closer look

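Of the 10 genes 8 were flagged because their difference from wild-type was not the same in the 2 knock-in genotypes, as tested by Trpm3-M/M against Trpm3-I/M with edgeR. Under the relaxed filter 8.43% of all genes were called higher in that comparison. The log2 difference between the effects was 4.43 for *Fos*, 4.95 for *Fosb*, 3.32 for *Junb*, 3.10 for *Atf3*, 3.78 for *Egr1*, 2.46 for *Nr4a1*, 3.34 for *Ier3* and 1.89 for *Myc*, with the largest FDR 0.00137 (*Myc*). The value for *Fosb* rests on few counts: it was 6.74 without Trpm3-I/M replicate 3, which held 5 of the 6 Trpm3-I/M counts, and 4.25 without Trpm3-M/M replicate 3. For *Egr1* the effects had opposite signs, higher in 3 of 3 Trpm3-M/M libraries and lower in 3 of 3 Trpm3-I/M libraries than every wild-type library. The 2 effects share the wild-type libraries, and macrophage, endothelial and pericyte markers differed between the same genotypes. No Dixon test for an outlying library was run, since groups of 3 libraries are too small for it.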

How the results depend on the processing

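Every call of a member in Trpm3-M/M against wild-type or against Trpm3-I/M kept its direction and its side of the threshold under each alternative that tested it (*Fosb* was not tested at 1 CPM): library size only, TMM without crystallin genes, upper-quartile factors, DESeq2, other filters, fits on the genotypes compared, a replicate block and each library left out. Over all members and comparisons 773 of 796 alternative values kept direction and call, 1 lost its call and 22 changed sign, all 22 of genes not called. The replicate block left the member counts at 3, 1, 0 and 3 under the CPM filter (in Trpm3-M/M, Trpm3-I/M and Trpm3-KO against wild-type and Trpm3-M/M against Trpm3-I/M) and at 8, 2, 0 and 8 under the relaxed filter, the values without it, although the numbers do not pair the libraries.

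A filter at 1 CPM tested 9 members and gave 7, 2 and 7 calls in Trpm3-M/M, Trpm3-I/M and Trpm3-M/M against Trpm3-I/M; no filter gave 8, 2 and 8. More genes tested accounts for these rises. Leaving out wild-type replicate 2 took the Trpm3-I/M count under the relaxed filter from 2 to 1; leaving out any other single library gave 2 there, and 8 in both comparisons of Trpm3-M/M. Among the other immediate early genes, a filter at 1 CPM gave 28 calls in Trpm3-M/M and 23 against Trpm3-I/M, no filter 35, 10 (Trpm3-I/M) and 27, and no fold change threshold 36, 19, 1 (Trpm3-KO) and 29. Among upstream regulators, library size only gave 4 in Trpm3-M/M and 2 against Trpm3-I/M, a filter at 1 CPM 3 in Trpm3-I/M and 2 against it, no filter 4, 4 and 2, and no fold change threshold 19, 9 and 15. With no fold change threshold 30 of 41 other immediate early genes and 14 of 27 upstream regulators were higher in Trpm3-M/M, against 31.4% of all genes. Shares of all genes are not given for the other alternatives, so those counts show only how the calls moved with the settings.

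Library size only moved the median of all genes by 0.50 (log2) in Trpm3-M/M lenses, 0.20 in Trpm3-I/M lenses and 0.05 in Trpm3-KO. Under it the signs turned for *Dusp1* in Trpm3-M/M (0.46, below that median) and against Trpm3-I/M (0.15), for *Jun* (0.14), *Nr4a1* (0.15) and *Myc* (0.14) in Trpm3-I/M and for *Jun* in Trpm3-KO (0.0125). With single libraries left out, signs turned in Trpm3-I/M for *Fosb* (-0.0555 to 3.97), *Jun* (-0.14 to 0.0751), *Junb* (-1.17 to 0.0182), *Nr4a1* (-0.39 to 0.11) and *Myc* (-0.47 to 0.43), in Trpm3-KO for *Fosb* (-2.22 to 2.96), *Jun* (-0.11 to 0.11), *Junb* (-0.78 to 0.42) and *Ier3* (-0.0319 to 0.89), and in Trpm3-M/M for *Dusp1* (-0.0867 to 0.00383). The cause of these changes was not tested. Depth limits *Fos*, *Fosb*, *Atf3*, *Ier3*, *Myc*, *Egr2* and *Egr3*, with 0 to 50 counts a library outside Trpm3-M/M. It also limits *Arc* in wild-type lenses, with at most 2 counts a library.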
